A study of Danio rerio with 36 samples.

Results

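Sperm DNA of zebrafish is methylated at nearly all CpG dinucleotides, and a small fraction of the genome is kept free of methylation. The windows described here belong to neither state. They are stretches of 1 kb in which the mean methylation lay between 35 and 65% in each of 3 wild-type males, with at least 5 CpGs that had a value in all 3. There were 6000 such windows, called mid-level windows below, among 804925 windows with enough CpGs (0.745%). Another 741426 windows (92.1%) were at 80% or more in every male and are called methylated windows, and 27302 (3.39%) were at 20% or less and are called unmethylated windows. The windows were chosen by the methylation values of these 3 males, so their levels and their composition in these males are a description without a test.

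In vertebrates, methyl groups on cytosine are copied to the new DNA strand after each replication by the maintenance methyltransferase Dnmt1. Short CpG-rich stretches, many of them at promoters, escape methylation and are flanked by methylated DNA. A mean level in the middle of the scale can therefore arise in different ways, since fully methylated and unmethylated CpGs may lie side by side, or each CpG may be methylated in only a part of the DNA molecules.

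The data come from whole genome bisulfite sequencing, which converts cytosines without a methyl group, of 18 fish that form 6 groups of 3. The wild-type males were *dnmt1*+/+ fish of the G2 generation, which the sample labels call generation 1, and they were compared with *dnmt1*m/m males of the same generation. The mutants are homozygous for a recessive viable allele of *dnmt1* regarded as a hypomorph, written *dnmt1*-/- in the labels. Sperm was also taken from males of the G4 generation, all genotypically wild type (*dnmt1*+/+) and descended from the mutant lineage. Of these, G4+ males had offspring with normal larval T cell development and are labelled non-transmitting, whereas G4* males had offspring in which it was impaired. Finally, whole bodies of 3 *dnmt1*+/+ and 3 *dnmt1*m/m fish were taken at 18 days post fertilization (dpf), and the labels call them whole embryos. All fish were of a mixed background, the labels give no age for the sperm donors, and the mutants carry the mutation in all cells, those of the germline and of the body.

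Each fish had 2 libraries from different kits, which the authors merged, so the fish is the replicate. Of 23946533 CpGs listed, between 41.1% and 66.3% had a value in a fish, fewest in the whole bodies. The read number behind a value was not used here, and its precision is therefore unknown. Ratios were averages over many cells and both parental alleles, and these cannot be told apart in the deposited values. At most 1.58% of the mid-level windows had an identical mean in any pair of fish.

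Most mid-level windows held CpGs of both extremes rather than CpGs of middle methylation. Over the 57450 CpGs in them, 35.8% were low (under 20% methylated as the mean of the 3 males), 37.2% were high (over 80%) and 27.0% were intermediate (20 to 80%). In methylated windows, 1.40% of the CpGs were intermediate, and over all windows the share was 2.39%. The windows were then sorted by this composition. In 3881 of them (64.7%), at most 20% of the CpGs were intermediate, and these are called mixed. In 633 (10.6%), at least 80% of the CpGs were intermediate, and these are called even. The other 1486 (24.8%) were in between. The mixed windows included 2145 (35.8% of all mid-level windows) without a single intermediate CpG, and the even windows included 328 (5.47%) in which every CpG was intermediate. These shares depend on the mean as the level of a window. When windows were chosen by the median over their CpGs, 1579 qualified and the order was reversed, with 24.4% mixed and 36.7% even. A median in the middle of the scale mostly requires that the middle CpG of the window is itself intermediate. Choosing by the median therefore tends to leave out windows made of low and high CpGs. The reversal follows at least in part from this rule, and no conclusion on the composition is drawn from it.

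**Figure D1:**
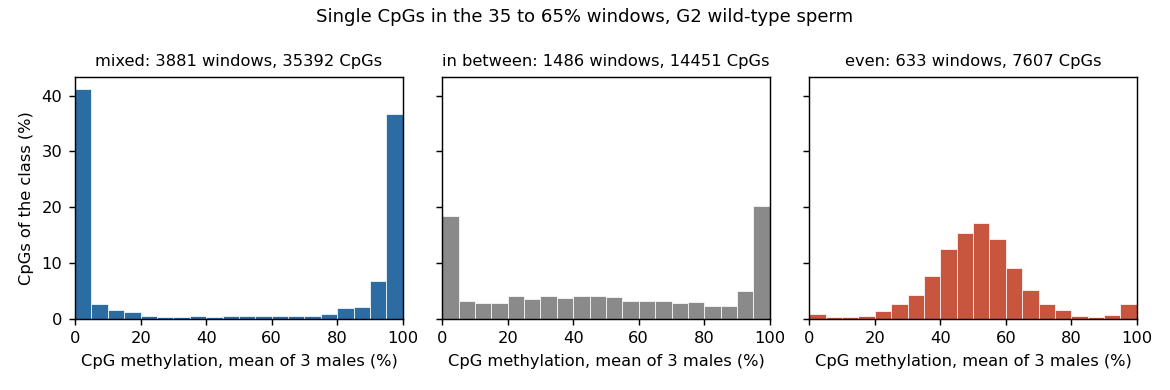
Methylation of single CpGs (x axis, mean of the 3 *dnmt1*+/+ G2 males, in percent, bins of 5 points) as the percentage of all CpGs of the class (y axis), for mixed, in between and even windows. In mixed windows 41.3% of the CpGs lay under 5% and 36.6% over 95%. The CpGs of even windows formed a hump around the middle of the scale, with a small rise to 2.64% from 95 to 100%. The classes were defined by their share of intermediate CpGs, so these shapes follow in part from the definition.

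A like composition was found in males that took no part in choosing the windows. Of the mid-level windows that also lay between 35 and 65% in a given G4 male, 63.5 to 66.7% were mixed in that male alone and 6.39 to 8.42% were even. Among these windows alone, those that were mixed in the G2 males had the same class in 80.1 to 82.8% of cases in the single G4 males, and those that were even in 80.2 to 84.3%. Windows that had left the range of 35 to 65% in the G4 male are not part of these shares. Over all even windows measured in a G4 male, 51.4 to 59.3% of the CpGs were intermediate in that male, against 89.4 to 90.6% in the single G2 wild-type males that defined the class.

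Along the DNA, the mixed windows were ordered. In 3242 of the 3881 mixed windows (83.5%, or 54.0% of all mid-level windows), a single switch from low to high CpGs explained at least 80% of the variance of the CpG levels within the window. Methylation rose with the chromosome coordinate in 1608 of these (49.6%) and fell in the rest, so both orientations occurred. The CpGs on either side of the switch were a median of 272 bp apart (quartiles 148 and 423 bp). A further 268 mixed windows held an unmethylated stretch with methylated CpGs on both sides, 74 held a methylated stretch inside unmethylated CpGs, and 297 showed no such order. Among even windows, 399 of 633 (63.0%) had no order of any of these kinds.

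The neighbouring windows also differed between the classes. Of 1741 mixed windows with 1 switch whose neighbours on both sides had enough CpGs, 1183 (67.9%) had a neighbour under 20% on one side and a neighbour over 80% on the other. On the high side of the switch the neighbour was over 80% in 94.0%, and on the low side it was under 20% in 71.4%. Of 199 even windows with both neighbours, 17 (8.54%) lay between such a pair, while 68 (34.2%) lay between 2 windows over 80% and 56 (28.1%) had a neighbour that was itself between 35 and 65%. Over all windows, 4.13% lay between a low and a high neighbour, and 89.3% between 2 high ones. The low stretch that began at a switch ran for a median of 1635 bp (quartiles 1137 and 2257 bp) before high CpGs returned. Of the mid-level windows, 5697 had no adjacent member, and there were 150 adjacent pairs and 1 run of 3. Both neighbours had enough CpGs for 2895 of the 6000, so a window can stand alone because its neighbour was not measured. Among these 2895, 314 (10.8%) had a neighbour with a mean between 35 and 65%.

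The classes also differed in median CpG density, with quartile ranges that overlapped. Even windows held a median of 23 listed CpGs (quartiles 16 and 32), mixed windows 15 (11 and 22) and methylated windows 17, while unmethylated windows held 28. Chromosome 22 had the largest share of mid-level windows (1.04% of its windows), followed by chromosome 16 (1.01%), and chromosome 9 the smallest (0.535%). For even windows the largest shares were on chromosomes 22 (0.191%), 4 (0.182%) and 3 (0.170%), against 0.0786% over all chromosomes.

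Windows near the bounds show how the choice was made. There were 247 members in which the lowest male was under 36% and 288 in which the highest was over 64%, while 227 windows were left out because the lowest male lay between 34 and 35% and 391 because the highest lay between 65 and 66%. The range over the 3 males had a median of 4.90 points. A further 3818 windows had a mean over the 3 males between 35 and 65% but did not lie there in every male, which is 38.9% of all windows with such a mean.

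Levels in the other fish were calculated over CpGs that had a value in the 3 G2 wild-type males and in all fish of the group compared, again with at least 5 per window. In wild-type whole bodies, the mid-level windows averaged 53.3, 53.0 and 53.3% (53.2% ± 0.145; SD, n = 3; 2455 windows). In mutant bodies they averaged 32.5, 32.2 and 32.6% (32.4% ± 0.191; SD, n = 3). All 3 mutants thus lay below all 3 wild-type fish, by 20.8 percentage points on average. The two-sided exact permutation test gave p = 0.1, the smallest value that 3 fish against 3 allow. The even windows fell from 59.0% ± 0.440 to 37.0% ± 0.607, and the mixed windows from 51.2% ± 0.114 to 31.1% ± 0.223 (SD, n = 3; exact permutation p = 0.1 in both).

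Relative to wild type, the mutant bodies retained 61.0, 60.6 and 61.3% of the methylation of mid-level windows (60.9% ± 0.360; SD, n = 3). Methylated windows retained 66.6% ± 0.115, and unmethylated windows, at 7.94% in wild type, retained 55.7% ± 0.418 (SD, n = 3). The ratio of mid-level to methylated windows was thus lower in each mutant than in each wild-type fish, by 0.128 on the log2 scale (two-sided exact permutation p = 0.1, the smallest possible). For even windows the retained share was 61.6, 62.9 and 63.6% and for mixed windows 61.2, 60.3 and 60.7% in the same fish, without overlap, and the difference between the classes was not tested.

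**Figure D2:**
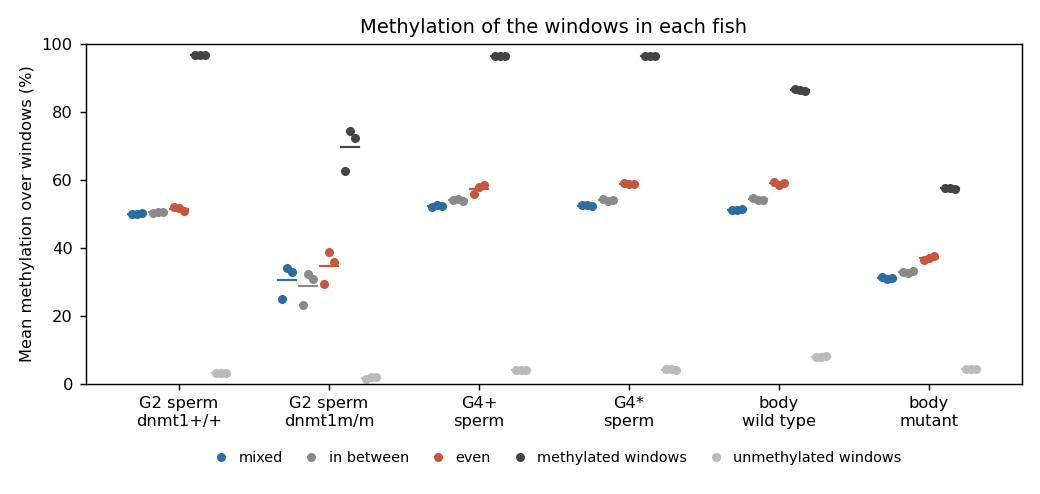
Mean methylation over the windows of each class (y axis, percent) in each of the 18 fish (points) by group (x axis), with the group mean as a bar. Mid-level windows sat between 53.0 and 53.8% in all G4 males and between 53.0 and 53.3% in the wild-type bodies when all classes are pooled, and lower in every *dnmt1*m/m fish.

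In single windows, 2798 mid-level windows were tested in whole body with limma, after a logit transformation of the window means. Windows were called at an FDR (false discovery rate) below 5% together with a minimum difference of 20 points. Of the mid-level windows, 1405 (50.2%) were called less methylated in mutants, against 81.7% of all windows tested. Mid-level windows started from 53.2% in wild type and methylated windows from 86.4%, and the part of this in the lower share of calls was not tested. Without a minimum difference 2411 (86.2%) were lower, against 97% of all windows. The median change was -20.2 points in mid-level windows and -28.3 points in all windows. By class, 774 of 1645 mixed, 431 of 781 in between and 200 of 372 even windows were called lower.

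Of the 2798 mid-level windows tested, 3 were called more methylated in mutant bodies, all on chromosome 3. Over all 403058 windows tested, 25 (0.0062%) were, which is a smaller share. With so few calls, nothing is drawn from these shares. The change was largest among the 3 at 37682000 to 37682999 (GRCz10), an even window 132 bp from *asic2*, which encodes an acid-sensing ion channel. The wild-type bodies were at 1.98, 0 and 2.23% and the mutant bodies at 44.5, 65.1 and 59.6%, over 21 CpGs (limma adjusted p = 1.95e-05). This window was at 54.3, 56.2 and 44.0% in G2 wild-type sperm and at 67.7, 40.1 and 36.1% in G2 mutant sperm. All 6 G4 males were high there, from 96.6 to 98.5%. The window had 37 CpGs. In the second wild-type body 29 of the 30 valued CpGs were at 0, and in each G4 male every valued CpG was over 80%. Window means so near the ends of the scale allow little else, so these counts restate the means. In the mutant bodies single CpGs ran from 11.1 to 75%, 14.3 to 85.7% and 16.7 to 84.6%.

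The other windows called higher in mutant bodies had no gene in the deposited interval tables. The mixed window at 43576000 to 43576999 rose from 44.0, 40.9 and 45.7% to 70.8, 61.5 and 72.9% (limma adjusted p = 0.000451). In each wild-type body 5 of its 11 CpGs were under 20%, and in each mutant body none was. The even window at 23916000 to 23916999 rose from 19.6, 15.3 and 11.8% to 39.2, 36.3 and 33.0% (limma adjusted p = 0.000342). When the second wild-type body was left out, 6 windows were called higher in place of 3, and over all windows 36 in place of 25.

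In sperm of G2 *dnmt1*m/m males the mid-level windows averaged 24.95, 34.2 and 32.7% (30.6% ± 4.96; SD, n = 3; 4171 windows). The first mutant male was the lowest, and it was also the lowest in methylated windows, which averaged 69.8% ± 6.27 over the 3 mutants. Because the wild-type side of this contrast chose the windows, no test of the difference is given.

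Within the mixed windows, the low and the high CpGs were followed separately. Values were taken over CpGs valued in all fish of the groups compared, so the CpG sets differ between tissues. The 3242 windows with 1 switch were aligned at the switch, and each CpG of the window was assigned to the low or the high side by its place. In G2 wild-type sperm, which set the sides, the low side was at 3.17% ± 0.226 and the high side at 94.1% ± 0.125 (SD, n = 3). In wild-type bodies the low side was at 10.8, 10.8 and 11.04%, and the high side at 84.1, 83.7 and 83.9%. In mutant bodies the low side was at 6.01, 5.44 and 5.96% and the high side at 51.4, 51.1 and 51.1%. The fall in the mutant body was therefore 32.7 points on the high side and 5.07 points on the low side, with no overlap between genotypes on either side. Of the wild-type means, 51.2 of 83.9% remained on the high side and 5.81 of 10.9% on the low side. The low side thus did not lose a smaller share, and the shares were not tested against each other.

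G2 mutant sperm gave a like picture, with 2.02, 2.17 and 2.86% on the low side and 46.2, 63.7 and 60.3% on the high side. In G4 sperm the low side was at 8.70% ± 0.168 in G4+ and 8.87% ± 0.426 in G4* males, and the high side at 88.9% ± 0.342 and 88.8% ± 0.216 (SD, n = 3). The low side was thus higher and the high side lower than in the G2 wild-type males, whose values had set the sides. The same side was the lower one in 98.9 to 99.9% of the edges in every one of the other 15 fish. The median step from low to high was 86.3 to 87.5 points in G4 males, 78.7 to 79.6 points in wild-type bodies, 45.7 to 46.4 points in mutant bodies, and 44.2, 62.6 and 59.0 points in G2 mutant males. The edge was thus seen in every fish, with its smallest steps in the *dnmt1*m/m fish.

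**Figure D3:**
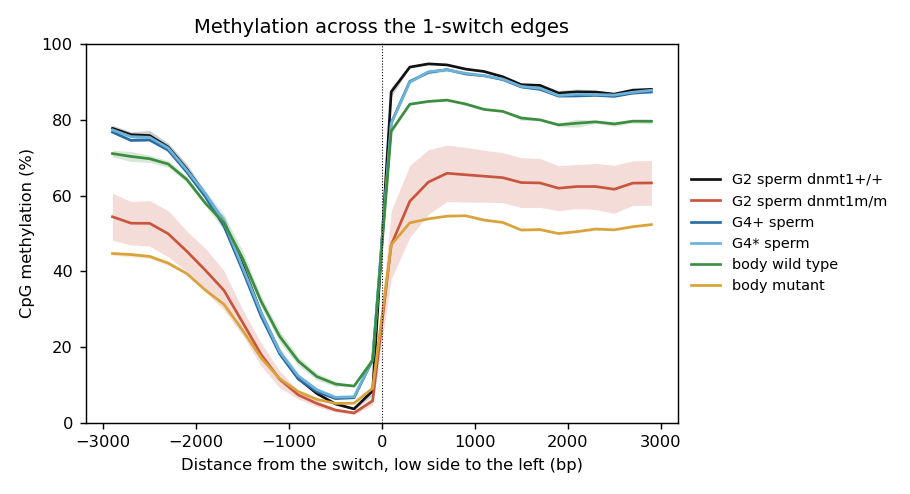
CpG methylation (y axis, percent) against the distance from the switch (x axis, bp, low side to the left) over the mixed windows with 1 switch, in bins of 200 bp. Lines are the means of 3 fish per group and shaded bands their SD. Methylation rose within the bins beside the switch in all 6 groups, from 8.44 to 87.4% in G2 wild-type sperm and from 9.13 to 47.0% in mutant bodies.

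CpGs were densest within the low stretch. The number of listed CpGs per edge and 200 bp was 3.18 in the bin next to the edge on the low side and reached 6.26 between 600 and 800 bp into that side. It was 2.53 in the first 200 bp of the high side and 2.99 at 800 to 1000 bp on that side. The switch was placed midway between the valued CpGs beside it, a median of 272 bp apart. The low numbers in the bins next to the edge therefore follow in part from this placement. Beyond the low stretch methylation returned, to 77.7% in G2 wild-type sperm and 71.1% in wild-type bodies at 2800 to 3000 bp.

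Single windows with many CpGs illustrate the edges. The mixed window with most CpGs, on chromosome 14 at 424000 to 424999, lies 19483 bp from *ANKRD50* and had 60 CpGs. In the G2 wild-type males it was at 41.6, 38.9 and 39.7%, and 33, 36 and 35 of the 60 CpGs were under 20% while 23 were over 80% in each. The G4 males were between 29.6 and 37.8% over 56 of these CpGs. In wild-type bodies it was at 25.3, 24.8 and 22.9% and in mutant bodies at 17.7, 17.5 and 17.7% over 16 shared CpGs, a difference of -6.65 points that did not reach the minimum of 20.

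Other mixed windows with many CpGs were measured over different CpGs in sperm and body. Within *neurod6a* on chromosome 24 (32558000 to 32558999), a gene for a neuronal transcription factor, the 59 CpGs averaged 40.8, 35.8 and 36.8% in G2 wild-type sperm. Over the 36 CpGs shared with G4 sperm the G4 males were at 57.7 to 63.2%, and over the 18 CpGs shared with bodies the wild-type bodies were at 73.9, 72.7 and 74.4% and the mutants at 54.4, 58.3 and 55.7%. These sets of CpGs differ, so the levels of the tissues cannot be set against each other. Within *igfbp7* on chromosome 14 (51805000 to 51805999), which encodes a binding protein of insulin-like growth factors, G2 wild-type males were at 45.9, 47.7 and 47.6% over 46 CpGs. The G4 males were at 42.8 to 50.3% over 43 of them. In *pcdh2g5* on the same chromosome (2007000 to 2007999), a clustered protocadherin of neural cell adhesion, G2 wild-type males were at 47.9, 46.0 and 46.8% over 46 CpGs. The G4 males were at 50.4 to 54.9% over 40 of them. As the CpGs differ, the G2 and G4 levels of these windows cannot be set against each other.

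The windows that varied least over all 9 males of wild-type genotype, among those at 35 to 65% in each, were all mixed, 5 of the 6 with 1 switch. The most stable lay in *elf2a*, an ETS family transcription factor gene, on chromosome 14 (47073000 to 47073999). All G4 males lay between 39.1 and 40% there over 5 shared CpGs, and the G2 wild-type males were at 55.1, 55.6 and 53.5% over all 9 CpGs. These sets of CpGs differ. The window was chosen for its small range, so the closeness of the G4 levels is no further result. In the 3 G2 wild-type males 4 of its 9 CpGs were under 20% and 5 over 80%, and in no G4 male was any CpG between 20 and 80%. The window in *aig1* on chromosome 20 (37816000 to 37816999) lay between 35.6 and 36.4% in the G4 males over 19 CpGs, and the one 466 bp from *ddah2* on chromosome 19 (19224000 to 19224999) between 38.7 and 40% over 15 CpGs.

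Among the pairs of adjacent mid-level windows named here, only the pair in *ern2* had an edge in both windows. The other named pairs each held a window without order. In *ern2*, which encodes a sensor of stress in the endoplasmic reticulum, the windows at 8501000 and 8502000 on chromosome 1 had single switches of opposite orientation, high to low and then low to high. In the first, G2 wild-type males were at 43.2, 42.3 and 41.9%, and in the second at 44.5, 45.8 and 46.1%. The only run of 3, on chromosome 5 (57752000 to 57754999), had no gene in the tables and between 5 and 8 CpGs per window.

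The G4+ and G4* males had similar mean levels in the mid-level windows. These were at 53.0, 53.7 and 53.3% in G4+ sperm (53.3% ± 0.324) and at 53.8, 53.6 and 53.5% in G4* sperm (53.6% ± 0.157; SD, n = 3; 3834 windows). The ranges overlapped, and the difference of 0.283 points did not pass the exact permutation test (two-sided p = 0.3, where 0.1 is the smallest possible). The size depended on the setting, since it was 0.532 points with at least 10 CpGs and 1.61 points by medians over CpGs, both with an exact permutation p = 0.1, and 0.122 points without the first G4+ male (exact permutation p = 0.6). Even windows were at 55.7, 57.9 and 58.7% in G4+ males and at 59.2, 58.8 and 58.7% in G4* males. The highest G4+ male (58.6501%) and the lowest G4* male (58.6555%) were nearly equal, and the difference of the means of 1.48 points had an exact permutation p = 0.1. Mixed windows differed by 0.128 points (exact permutation p = 0.6).

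The share of windows at the middle of the scale in every fish of a group differed by class. Levels rest on the CpGs shared by all fish compared, often fewer than those that chose the window. A mixed window can thus leave the range through the CpGs that remain. The window in *ern2* at 8501000 was at 41.9 to 43.2% over 14 CpGs in G2 wild-type males. In G4 males it was at 11.1 to 17.1% over 9 CpGs. How far this enters the shares below was not tested. Of 3834 mid-level windows measured in all G4 males, 1235 (32.2%) lay between 35 and 65% in each of the 6, against 0.145% of the windows that were not members. The share was 40.4% of the mixed windows (972 of 2407) and 9.20% of the even windows (40 of 435). In the 3 wild-type bodies, 1382 of 3214 (43.0%) were between 35 and 65% in each, with 48.4% of the mixed and 22.9% of the even windows, against 2.06% of the other windows. In the 3 G2 mutant males, 652 of 4171 (15.6%) were in this range in each, against 10.2% of the other windows.

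Even windows varied widely between G4 males. The SD over the 6 males had a median of 12.04 points in even windows and 4.20 points in mixed windows, and was 1.38 points in methylated windows. The range exceeded 40 points in 157 of 435 even windows (36.1%) and in 110 of 2407 mixed windows (4.57%). In 28 even windows (6.44%) 1 male was under 20% and another over 80%, which no mixed window showed. In wild-type bodies the range exceeded 40 points in 12.9% of the even and 0.315% of the mixed windows, so the wider spread of even windows was seen in both tissues.

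**Figure D4:**
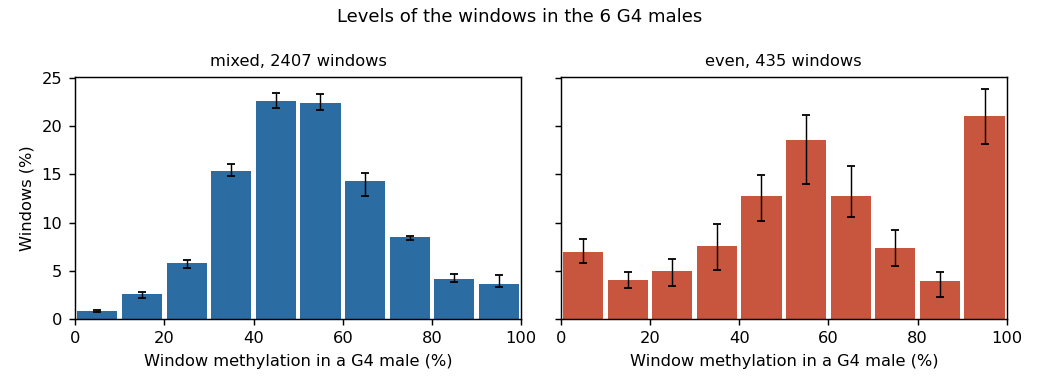
Methylation of mixed and even windows in single G4 males (x axis, percent, bins of 10 points) as the percentage of windows (y axis). Bars are means over the 6 males and whiskers run from the lowest to the highest male; even windows had 18.6% between 50 and 60%, 21.1% between 90 and 100% and 6.97% between 0 and 10%, whereas mixed windows had a single peak.

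Windows with the widest range took low, middle and high values in different males. The even window 4349 bp from *si:dkey-12e7.4* on chromosome 18 (21176000 to 21176999) was at 61.4, 100 and 0% in the G4+ males and at 53.1, 98.9 and 35.4% in the G4* males over 6 shared CpGs. All 9 valued CpGs were at 0 in the third G4+ male and all 9 were at 100% in the second. Window means of 0 and 100% allow little else, so these counts restate the means. The wild-type bodies were at 16.9, 91.0 and 48.4% there. Near *pard3*, a cell polarity gene, on chromosome 2 (43556000 to 43556999, 15747 bp away), G4+ males were at 0, 53.9 and 97.6% and G4* males at 5.56, 97.1 and 60.03%. Near *epha4b*, an ephrin receptor gene on the same chromosome (40673000 to 40673999, 12437 bp away), they were at 98.3, 55.0 and 1.92% and at 96.1, 1.59 and 59.4%. In *tns1b* on chromosome 9 (47746000 to 47746999), a tensin gene of cell adhesion sites, they were at 100, 1.18 and 96.8% and at 57.7, 36.6 and 100%. In each of these 4, both groups of G4 males spanned more than 60 points, and the groups overlapped. The window at 51339000 to 51339999 on chromosome 9 was at 1.35, 98.3 and 0% in G4+ and at 74.0, 91.2 and 1.01% in G4* males. At 2183000 to 2183999 on that chromosome, 45359 bp from *si:ch211-245l1.1*, only the G4+ males varied widely, at 1.56, 43.2 and 97.3%. The G4* males were all high, at 96.5, 96.9 and 98.3% (limma adjusted p = 0.885). The third G4+ male lay within the range of the G4* males, so the groups overlapped here too.

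The even window with most CpGs lay in *si:ch73-366i20.1* on chromosome 2 (15129000 to 15129999). In the G2 wild-type males it was at 52.5, 44.0 and 55.7%, and 43, 41 and 43 of its 45 CpGs were between 20 and 80%. The first G4+ male was at 0.405%, with 31 of 33 valued CpGs at 0, and the other G4 males were between 32.4 and 51.6%. The even window on chromosome 10 at 35966000 to 35966999 had 38 CpGs, all intermediate, and was likewise lowest in the first G4+ male, at 3.46%, with the others between 20.4 and 53.7%. By contrast, the even windows in *pcdh2aa15* (chromosome 14, 2345000 to 2345999), another clustered protocadherin, and near *si:dkey-1f1.4* (chromosome 12, 38369000 to 38369999, 1875 bp away) stayed between 28.4 and 62.8% in every G4 male. In *ctnna2*, which encodes a neural alpha-catenin, the window at 41549000 to 41549999 on chromosome 1 was at 50.7 to 59.2% in G2 wild-type males, while 2 G4 males, of different groups, were over 95%.

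The limma test between G4+ and G4* sperm covered 4604 mid-level windows. It called 11 of them (0.239%), 6 lower and 5 higher in G4*, whereas 0.0223% of all 763308 windows were called (0.0149% lower and 0.00734% higher). Even windows made up 10 of the 11, or 2.11% of the 475 even windows tested, and 1 of 2965 mixed windows was called. At an unadjusted p under 0.05, 222 mid-level windows passed (4.82%, against 5.59% of all windows), among them 61 of the 475 even windows (12.8%). None of the 11 calls remained in the fits that omitted a single male, whichever of the 6 it was, when all 170 calls over the genome were lost too, and none remained with the replicate number as a block.

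All 10 even windows that were called lay on chromosome 16 between 29390000 and 38848999. Of the 170 windows called over the genome, 41 lay on this chromosome and 18 in this stretch, which was delimited after the calls were seen. In *bcan*, the gene of the brain proteoglycan brevican (29390000 to 29390999), G4+ males were at 7.50, 6.07 and 8.44% and G4* males at 51.4, 59.6 and 49.1% (limma adjusted p = 0.0384). In *ndrg1b* (31558000 to 31558999) they were at 5.26, 4.18 and 5.02% and at 58.1, 39.0 and 45.3% (limma adjusted p = 0.0479). In these, G4+ males were near 0 and G4* males in the middle.

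Others were near 100% in G4+ males. In *si:ch211-208k15.1* (37268000 to 37268999), G4+ males were at 98.1, 97.6 and 97.6% and G4* males at 48.6, 53.9 and 58.9% (limma adjusted p = 0.0167). Each of the 28 CpGs valued in a G4+ male was over 80%, and in the G4* males all but 1 CpG lay between 20 and 80%. The window 21312 bp from *gnl2*, a gene for a nucleolar GTPase (33925000 to 33925999), was at 96.2, 95.1 and 96.7% and at 59.1, 65.04 and 54.0%. Another, 6053 bp from the same gene (33941000 to 33941999), moved the other way, from 3.47, 4.40 and 6.52% to 50.05, 55.9 and 47.9%. The 5 further windows, near *AL954832.1* and *TMEM74* or with no gene in the tables, were likewise at an extreme in all G4+ males, and G4* males were between 40.6 and 73.5% in them.

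Bodies and G2 mutant sperm also differed from fish to fish in these windows. In *si:ch211-208k15.1* the wild-type bodies were at 39.0, 1.53 and 72.8% and the mutant bodies at 1.92, 45.1 and 0.157% over 13 CpGs, and the groups overlapped. G2 mutant males were at 23.6, 61.9 and 31.1%. At 35445000 to 35445999 on the same chromosome, wild-type bodies were at 60.3, 1.71 and 90.8% and mutant bodies at 8.74, 67.2 and 6.15%. At both places the second wild-type body was near 0 and the second mutant body was the highest of the mutants.

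**Figure D5:**
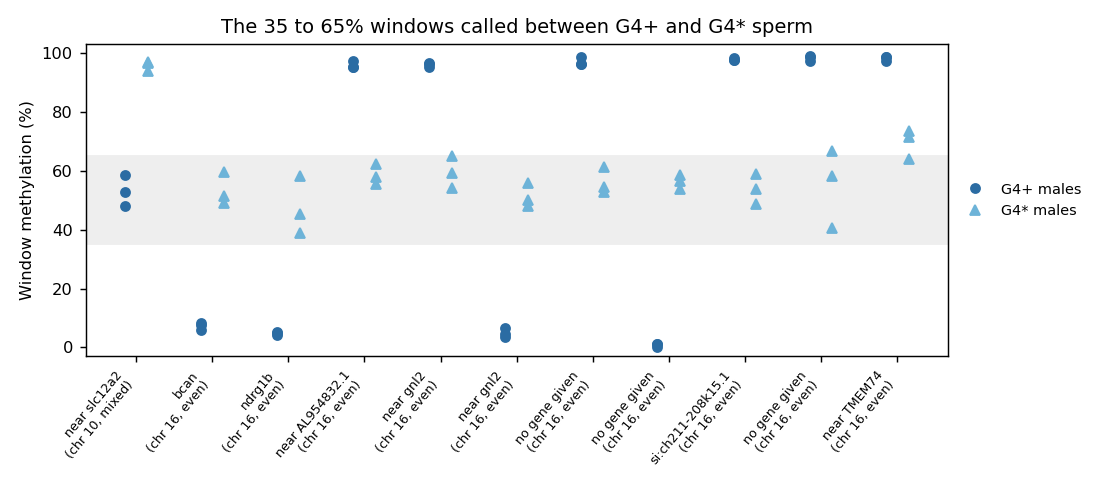
Methylation (y axis, percent) of the 11 mid-level windows called between G4+ and G4* sperm (x axis, by gene or nearest gene and class), with circles for the 3 G4+ males, triangles for the 3 G4* males and a grey band from 35 to 65%. In the 10 windows on chromosome 16 the G4+ males were all near 0 or all near 100% and the G4* males in or near the middle; at the window on chromosome 10 the G4* males were the extreme ones.

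In this stretch there were 80 mid-level windows among 5813 windows with enough CpGs, and 19 of them were even. Of 17 even windows measured in all G4 males, 9 had every G4+ male under 20% or every G4+ male over 80% together with every G4* male between 35 and 65% (4 low and 5 high). None had the reverse. The called windows bound the stretch and are among those counted, so the count is no evidence beyond the calls. Over the whole genome, the same windows included, 10 of 435 even windows had the first pattern and 1 the reverse. The only mixed window called lay 1234 bp from *slc12a2*, a gene for a cation-chloride cotransporter, on chromosome 10 (16266000 to 16266999), where G4+ males were at 58.4, 52.8 and 48.0% and G4* males at 93.8, 96.9 and 96.6% over 7 CpGs (limma adjusted p = 0.0391).

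Genes were taken from the deposited interval tables, which name the nearest gene of each interval. They placed 1557 of the 6000 windows (26.0%) inside a named gene and a further 578 near one, and gave none for 3865. Of the even windows 12 (1.896%) overlapped a deposited G4 interval, against 5 mixed windows (0.129%) and 0.0421% of all windows. These intervals were called by the authors on the same G4 males, so the overlap is no independent evidence.

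Counts for gene groups in whole body are to be read against the 50.2% of mid-level windows and the 81.7% of all windows that were called lower in mutants, and against median differences of -20.2 and -28.3 points. With so few windows in a group, nothing particular to a group is drawn from them. Body and sperm levels of a window rest on CpGs valued in different fish, so they cannot be set against each other. Of 189 zinc finger genes in the interval tables, 15 held 20 mid-level windows, of which 13 were mixed and 2 even. In whole body 7 of the 12 tested were called lower in mutants and none higher, with a median difference of -23.2 points. The window in *znf395b* (chromosome 20, 34847000 to 34847999) had 29 CpGs in G2 wild-type sperm and 6 in the bodies. Over these 6, the wild-type bodies were at 82.1, 79.4 and 79.7% and the mutants at 55.3, 53.5 and 53.9% (limma adjusted p = 4.89e-05). In the even window of *znf1122* (chromosome 4, 45987000 to 45987999), the wild-type bodies were at 33.2, 39.4 and 37.3% and the mutants at 20.2, 12.8 and 18.9%, a difference of -19.3 points that missed the minimum. In G4 sperm none of the 16 tested was called, although *znf536* (chromosome 7, 46225000 to 46225999) was at 10, 8.57 and 28.5% in G4+ and at 48.1, 34.5 and 36.4% in G4* males (limma adjusted p = 0.814).

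Of 24 protocadherins, 5 held 7 windows. In mutant bodies 3 of 5 tested were called lower, against 81.7% of all windows (median difference -25.2 points). The largest difference was in *pcdh1a3* (chromosome 10, 21658000 to 21658999), a mixed window with 1 switch. Over 8 CpGs, wild-type bodies were at 90.3, 90.8 and 95.4% and mutants at 48.5, 65.7 and 66.9% (limma adjusted p = 8.38e-05). All G4 males lay between 50.6 and 54.7%, but over 28 CpGs, so sperm and body cannot be set against each other there. Developmental transcription factors had 5 windows and no even one, in *foxb2*, *pax7a*, *pou2f2a*, *tbx1* and *tbx22*, and 2 of 3 tested were called lower, against 81.7% of all windows (median difference -27.0 points). At *tbx1*, a T-box factor of pharyngeal development, wild-type bodies were at 79.1, 82.6 and 74.8% and mutants at 46.1, 47.5 and 40.1% (chromosome 5, 14687000 to 14687999; limma adjusted p = 4.28e-05). At *foxb2*, a forkhead factor (chromosome 8, 38473000 to 38473999), the window had 22 CpGs in G2 wild-type sperm and 9 in the bodies. Over these 9, the wild-type bodies were at 16.3, 20.1 and 17.3% and the mutants at 7.35, 9.13 and 8.44%. This difference of -9.63 points missed the minimum (limma adjusted p = 0.000689).

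Among germline genes and genes of the methylation machinery there was 1 window each, both mixed with 1 switch. In *piwil1*, a Piwi protein gene of the piRNA pathway in the germline (chromosome 8, 44245000 to 44245999), wild-type bodies were at 59.4, 47.5 and 51.3% and mutants at 26.5, 25.7 and 19.7% (limma adjusted p = 0.000168). G4 males were between 60.3 and 65.3% there over 12 CpGs. In *uhrf1*, whose product guides Dnmt1 to hemimethylated DNA (chromosome 22, 3955000 to 3955999), wild-type bodies were at 77.3, 74.0 and 80.4% and mutants at 53.9, 57.1 and 48.4% (limma adjusted p = 0.000232). Its G4 males were between 47.0 and 53.0%, with a difference of 1.09 points between G4+ and G4*. Innate immune families had 5 windows, of which 1 of 3 tested was called lower in mutant bodies, against 81.7% of all windows. All 3 differences were negative (-13.0, -25.7 and -28.8 points), and none of 5 windows was called in G4 sperm.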

How the data were processed

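Whole genome bisulfite sequencing data of 18 zebrafish, 3 in each of 6 groups, were used. Per the methods, the authors trimmed reads with cutadapt 1.9.1, mapped them with BWA 0.7.12 to bisulfite-converted danRer10 (GRCz10), removed duplicates with Picard 1.136, merged the 2 libraries of a fish with SAMtools 1.3.1, and set CpGs under 10 reads or with a variant frequency of at least 0.25 to missing. Replicates were not pooled. The G4 columns are headed Ctrl and Pb rather than by the sample titles, and were assigned to G4+ and G4* males through headings in the study's supplementary tables; every G4 comparison rests on this assignment. The deposited values are the fraction of methylated reads per CpG, given here as percent, with no further normalization; a value missing for low coverage and one missing for a variant cannot be told apart. As the read number per CpG was not used here, no counting interval was calculated. The deposited interval tables also hold other measures, namely positions in bp and the distance to the nearest gene, which were used for gene names; their columns of group means, differences and p-values are the authors' own comparisons and were not used. The tables that re-evaluate G2 intervals in G4 sperm and the mean levels of selected loci were not used.

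Windows of 1 kb began at multiples of 1000 bp. The members, the classes, the gene groups and the tests were chosen with earlier results of these data known. Windows with at least 5 CpGs valued in all 6 fish were tested with limma 3.58.1 in R 4.3.3 on the logit of the window mean (offset 0.01), with Benjamini-Hochberg adjustment over all windows, only the 6 fish of a comparison in each fit, and no replicate block. Two-sided exact permutation tests were used for group means. The labels do not say whether the fish were raised together, so p-values measure only the spread between these fish. The script was tested on simulated data.

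Named regions were the 6 even and 6 mixed windows with most CpGs, the 4 longest runs, the 10 windows with the largest difference among those called in G4 sperm, those called higher in mutant bodies (at most 6), the 6 with the smallest range over the 9 males of wild-type genotype, and the 6 with the widest range over G4 males. The remaining G4 call and the windows of the gene groups were added after their values were seen. Alternatives were other bounds, CpG minimums, window sizes and starts, medians, other limits for intermediate CpGs, other offsets, untransformed means, no minimum difference, a replicate block, and the omission of single fish. No sequence is printed, since no genome of this build was used here.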

Additional observations from a re-analysis of the deposited data

How the results depend on the processing

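The differences of the mid-level windows in whole body and between G4 groups and the retained share kept their direction under each of the alternatives run on them (11, 11 and 11). The level of 30.6% in G2 mutant sperm has no direction. It stayed within 1 SD over the mutant males (4.96 points) under all 8 alternatives run on it. In size, the G4 difference of 0.283 points ranged from 0.122 points without the first G4+ male to 1.61 points by medians, and the retained log2 difference of -0.128 was -0.197 by medians. Counts depended on the bounds and on the way a window level was formed. The number of mid-level windows was 3244 for bounds of 40 to 60%, 9378 for 30 to 70%, 2198 with at least 10 CpGs, 1579 by medians over CpGs, 3099 in windows of 500 bp, and between 7817 and 9094 with 1 wild-type male left out (highest without male 1). The mixed share of 64.7% became 71.0% for bounds of 40 to 60%, 61.0% with 10 CpGs, 24.4% by medians, 74.3% and 51.9% with intermediate CpGs from 30 to 70% and from 10 to 90%, 67.9, 67.7 and 66.6% in single males, 35.8% and 79.1% with classes at 100% and 60% of CpGs, and 58.7 to 60.5% with 1 male left out. The even share of 10.6% became, in the same order, 8.23, 15.7, 36.7, 7.95, 13.1, 9.30, 9.53, 9.55, 5.47, 15.5 and 11.9995 to 13.5%, and 11.7% with windows shifted by 500 bp.

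Windows at 35 to 65% in all G4 males numbered 777 for bounds of 40 to 60%, 648 with 10 CpGs and 55 by medians, and in all wild-type bodies 797, 629 and 154. Windows called lower in mutant bodies numbered 752 of 1514 tested, 719 of 1509 and 384 of 798 under these settings. The main setting gave 1405 of 2798. Over all 403058 windows, 329430 were lower in the main setting and 321159 by medians. Without a minimum difference 2411 of 2798 were lower, against 390940 of all windows. With 10 CpGs in all 6 fish 291 of 691 were lower, against 83298 of 111808 over all windows. Windows called higher there numbered 8 without a minimum difference, against 233 over all windows. With 1 fish left out they numbered 2 to 6, against 21 to 36 over all windows, with 6 and 36 without the second wild-type body. In G4 sperm, 10 higher and 16 lower windows were called with an offset of 0.05, 9 and 15 on untransformed means, 0 and 0 with an offset of 0.001, and 0 and 0 with any 1 male left out, when 164 to 280 mid-level windows passed an unadjusted p of 0.05. With 10 CpGs 3 of 2035 were higher, against 56 of all windows. By medians 11 of 1194 were higher, against 91 of all windows. For bounds of 40 to 60% 3 of 2514 were lower, against 114 of all windows. The cause was not tested.

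The labels do not say whether same-numbered fish share more than a number. Their deviations from the group mean correlated at 0.0494, 0.140 and 0.0116 in G4 sperm and at 0.0113, -0.0135 and -0.00107 in whole body. For fish of different numbers the values ran from -0.0991 to 0.0478 in G4 sperm and from -0.0206 to 0.0211 in whole body. A batch shared by number was not tested. With the number as a replicate block, 1409 of 2798 mid-level windows were lower and 3 higher in mutant bodies. Over all 403058 windows these were 329462 and 25. In G4 sperm 0 and 0 were called. There 243 of 4604 passed an unadjusted limma p of 0.05, against 41369 of all 763308 windows. In an alternative chosen after seeing the data, levels were taken over all CpGs valued in the fish compared, with no change of direction. The read number behind each value is unknown, which limits the precision of windows with few CpGs.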
